A study of Mus musculus with 6 samples.

Results

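The genes of the proteasome, its regulators and its assembly factors were measured in mouse embryonic stem (ES) cells with and without expression of a human transcription factor. Members were the genes whose single symbol in the array's probe-to-gene table begins with Psma, Psmb, Psmc, Psmd, Psme, Psmf or Psmg followed by a number. This rule gave 49 of the 18193 genes with such a symbol, carried by 103 probe sets. Where a gene had several probe sets, the one with the highest mean across all 6 arrays represented it. The cells are the EBRTcH3 (EB3) line, in which a tetracycline-repressible promoter at the ROSA26 locus drives a 3xFLAG-tagged human GTF2IRD2 coding sequence. Induced cultures had been grown for 24 h without tetracycline, and uninduced cultures, labelled CTL, were kept in tetracycline (0 h). Each of 3 clones, A3, A4 and A5, gave 1 array of either kind, all from undifferentiated cells on gelatin in medium with serum and LIF. Every clone carries the transgene, no array comes from a line without it, and the printed GTF2IRD2 insert is much shorter than the inserts of the related genes in the study, so that the length of the expressed factor is not settled here.

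The proteasome degrades proteins that have been tagged with ubiquitin. Its 20S core is a barrel of 4 rings in which 7 alpha subunits form each outer ring and 7 beta subunits each inner ring, and the beta subunits Psmb6, Psmb7 and Psmb5 (the beta1, beta2 and beta5 sites) cut the substrate. The 19S cap binds the ubiquitin chain, removes it and threads the unfolded substrate into the core with a ring of 6 ATPases. In immune cells and after interferon, Psmb9, Psmb10 and Psmb8 take the catalytic places and form the immunoproteasome, which makes peptides for antigen presentation. High proteasome activity has been described in human ES cells.

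By role the members comprised 8 genes of the alpha ring, 7 of the constitutive beta ring, 4 immunoproteasome and thymoproteasome beta subunits, 6 ATPases and 3 other base subunits or ubiquitin receptors of the 19S cap, and 8 lid subunits. A further 3 were 19S assembly chaperones, 4 were activators or inhibitors, 4 were 20S assembly chaperones and 2 lay outside these roles. The 2 outside are Psmc3ip, whose product acts in meiotic recombination, and Psme3ip1, a partner of the activator Psme3. Psme2, the beta subunit of the 11S activator, shares its probe set with Psme2b and is therefore no member. In RefSeq the same letters cover 51 protein-coding genes. Means over the 6 arrays were at least 10 on the log2 scale for 35 members and at least 8 for 46. The 3 below were Psmb9 (5.84), Psmb8 (4.06) and the thymoproteasome subunit Psmb11 (3.53). Levels of different probe sets cannot be set against each other, so the members are compared between arrays. Means and sums of cell type markers given further on join different probe sets and are descriptions only.

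Promoter windows from RefSeq (build GRCm38.p6), running 250 bases before to 50 after the start of a gene, matched 41 of the 49 members by symbol. Psma8, Psmb1, Psmb2, Psmb7, Psmc3, Psmd3, Psmd7 and Psmg2 had no entry. Shown here are both constitutive catalytic subunits whose window holds the core of the antioxidant response element (TGACNNNGC), the element through which Nfe2l1 is known to raise proteasome genes when the proteasome is inhibited. A 19S ATPase with an ETS core (CCGGAAG) and the immunoproteasome subunit Psmb8 with a gamma-activated site (TTCNNNGAA) follow. Capitals mark the match, which lies on the strand shown in all 4.
Psmb5, chr14:54617946-54618245, minus strand: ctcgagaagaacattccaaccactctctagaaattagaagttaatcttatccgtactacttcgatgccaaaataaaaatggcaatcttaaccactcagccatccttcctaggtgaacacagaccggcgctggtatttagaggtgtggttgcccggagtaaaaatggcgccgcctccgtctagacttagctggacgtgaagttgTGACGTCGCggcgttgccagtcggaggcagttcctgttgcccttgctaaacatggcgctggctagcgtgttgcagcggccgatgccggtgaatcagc
Psmb6, chr11:70525107-70525406, plus strand: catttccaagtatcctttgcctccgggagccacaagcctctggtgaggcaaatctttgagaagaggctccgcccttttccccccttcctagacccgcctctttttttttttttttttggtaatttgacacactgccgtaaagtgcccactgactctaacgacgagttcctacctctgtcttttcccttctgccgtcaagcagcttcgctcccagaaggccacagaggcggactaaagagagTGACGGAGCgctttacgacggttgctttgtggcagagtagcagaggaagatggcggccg
Psmc6, chr14:45329574-45329873, plus strand: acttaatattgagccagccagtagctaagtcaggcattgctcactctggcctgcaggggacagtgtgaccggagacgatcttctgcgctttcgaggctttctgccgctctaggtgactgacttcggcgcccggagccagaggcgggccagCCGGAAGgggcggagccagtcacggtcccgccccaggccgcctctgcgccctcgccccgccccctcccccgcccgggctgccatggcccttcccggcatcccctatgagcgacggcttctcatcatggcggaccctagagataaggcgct
Psmb8, chr17:34197945-34198244, plus strand: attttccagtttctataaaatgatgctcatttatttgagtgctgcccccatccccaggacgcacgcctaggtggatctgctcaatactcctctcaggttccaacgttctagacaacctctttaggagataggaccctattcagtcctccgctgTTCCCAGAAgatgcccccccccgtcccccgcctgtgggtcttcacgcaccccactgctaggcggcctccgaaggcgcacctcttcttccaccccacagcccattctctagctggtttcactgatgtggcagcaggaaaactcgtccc
The matches begin 47 bases before the start site in Psmb5, 9 in Psmb6, 100 in Psmc6 and 97 in Psmb8.

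Over both strands the antioxidant response core was found in 6 of 41 members (14.6%), against 14% of the 27025 genes in the table. Of the 1512 genes with both a promoter window and a mean of at least 10 on these arrays, 18.2% had it. Besides Psmb5 and Psmb6 the members with it were Psmc6, Psmd9, Psmd12 and Psme4. The ETS core was found in 16 members (39.0%), against 9.93% of all genes and 27.6% of those 1512. The CCAAT box stood in 16 members (39.0%, against 41.1% of all genes and 44.2% of those 1512). The interferon-stimulated response element (GAAANNGAAA) stood in 5, namely Psmb3, Psmd4, Psmd9, Psme1 and Psmg4 (12.2%, against 3.99% and 3.31%). The gamma-activated site stood in Psmb8, Psmd2 and Psmg1 (7.32%, against 9.55% and 7.47%). The cyclic AMP response element (TGACGTCA) stood in 0 members (2.03% of all genes and 3.77% of those 1512). A stretch that matches one motif may also count for another. These matches are descriptions of sequence and no binding was measured.

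The first comparison asks how the members differed between induced and uninduced cultures. These differ at once in the transgene, in tetracycline and in time (24 h and 0 h), and the 3 cannot be told apart here. Across the family, induced and uninduced cultures had close values. In limma 0 of the 49 members had an adjusted p under 0.05, where 0 of all 45037 probe sets did (0%), and 0 members had an unadjusted p under 0.05, where 1404 probe sets did (3.12%). With the clone as a block the counts of members were 0 and 0 as well, where 2597 probe sets (5.77%) had an unadjusted p under 0.05. Of the 1823 genes with a mean of at least 10, 2 had an unadjusted p under 0.05 without the block and 13 with it. Of the members 35 reach that mean. The differences (induced minus uninduced, log2) ranged from -0.12 to 0.17, so that every member stayed under 1.2-fold in the mean, with the largest at 1.13-fold. The 95% interval of the difference lay within 1.5-fold in either direction for 47 members. The other 2 were Psmb1 and Psma8, whose clones stood far apart.

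The median difference over the members was 0.01, with 30 of 49 higher in induced cultures, beside a median of -0.003 over all genes with 1 symbol. Of these 18193 genes 8819 were higher, and of the 1823 with a mean of at least 10, 928 were. Taken clone by clone, the median was 0.01 for A3, -0.03 for A4 and 0.06 for A5, with 25, 17 and 41 of 49 members higher in induced cells. Over all genes the within-clone medians were -0.01 for A3, 0.001 for A4 and 0.004 for A5, and over the 1823 genes with a mean of at least 10 they were -0.02, -0.001 and 0.02. Of all genes 45.6%, 50.3% and 51.1% were higher in induced A3, A4 and A5. Of those 1823 genes 40.9%, 49.4% and 61.1% were. The members thus had 1 sign in all 3 clones in 12 cases (24.5%, 8 higher and 4 lower), close to the background of 26.5% of genes. In 0 members did the values of the induced and uninduced arrays separate without overlap at the probe set used. This was so for 7.22% of all genes and 4.61% of those with a mean of at least 10.

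**Figure D1:**
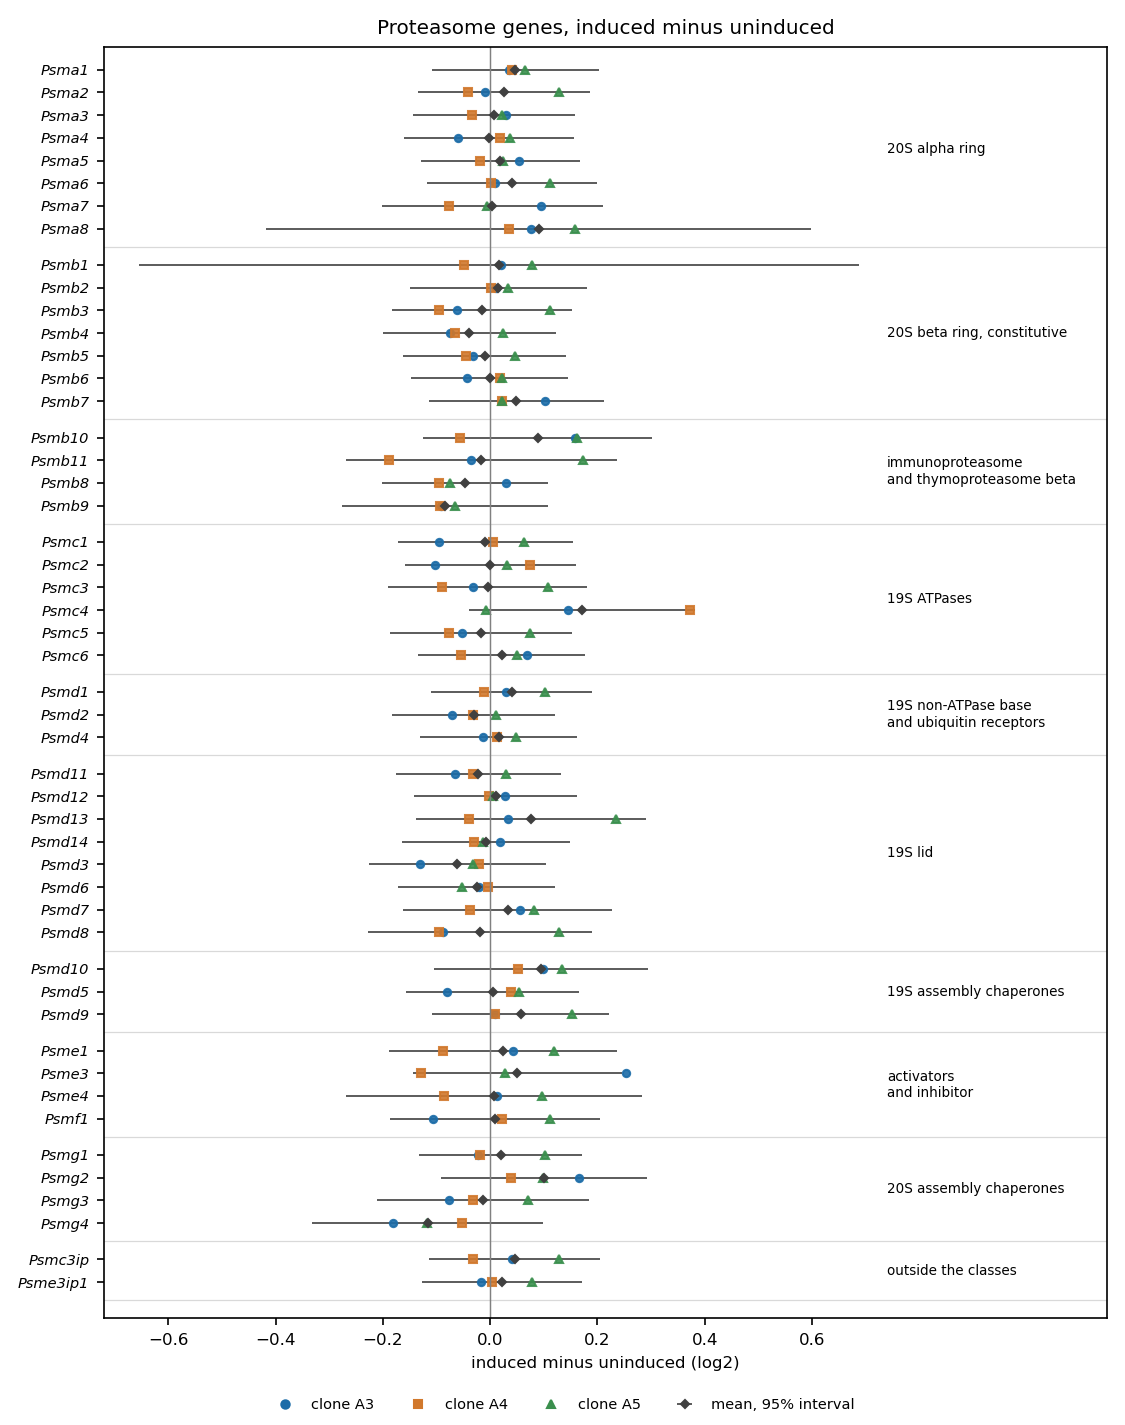
Difference between induced and uninduced cultures (log2) for the 49 members, grouped by role. Coloured symbols are the 3 clones, and diamonds with lines are the mean and its 95% interval in limma. All intervals include 0, the means lie between -0.12 and 0.17, and the wide intervals of Psmb1 and Psma8 carry the spread between clones.

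The catalytic subunits were compared site by site. At the beta1 site Psmb6 had 11.94, 11.99 and 11.99 in induced A3, A4 and A5 and 11.99, 11.97 and 11.97 in the uninduced cultures, a difference of -0.001 ± 0.06 (SE). Its immunoproteasome counterpart Psmb9 had 5.68, 5.85 and 5.86 in induced and 5.77, 5.94 and 5.93 in uninduced cultures, a difference of -0.08 ± 0.08. Psmb9 was thus lower in each induced culture than in its own clone's uninduced culture (-0.09, -0.09 and -0.07), while the groups overlapped.

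At the beta2 site Psmb7 had 12.30, 12.37 and 12.30 in induced and 12.20, 12.34 and 12.27 in uninduced cultures, a difference of 0.05 ± 0.07 with the same sign in all 3 clones. Psmb10 had 8.34, 8.26 and 8.18 in induced and 8.18, 8.32 and 8.02 in uninduced cultures, a difference of 0.09 ± 0.09. Its value was higher on induction in A3 (0.16) and A5 (0.16) and lower in A4 (-0.06). At the beta5 site Psmb5 had 11.55, 11.60 and 11.61 in induced and 11.58, 11.65 and 11.57 in uninduced cultures, a difference of -0.01 ± 0.07. Psmb8 had 4.08, 4.04 and 4.00 in induced and 4.05, 4.14 and 4.07 in uninduced cultures, a difference of -0.05 ± 0.07. In limma 0 of these 6 genes passed the threshold, and at no site did the immunoproteasome subunit move against its constitutive counterpart by more than 0.14 in a clone. Psmb11, the beta5 subunit of thymic cortical epithelium, differed by -0.02 ± 0.11.

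**Figure D2:**
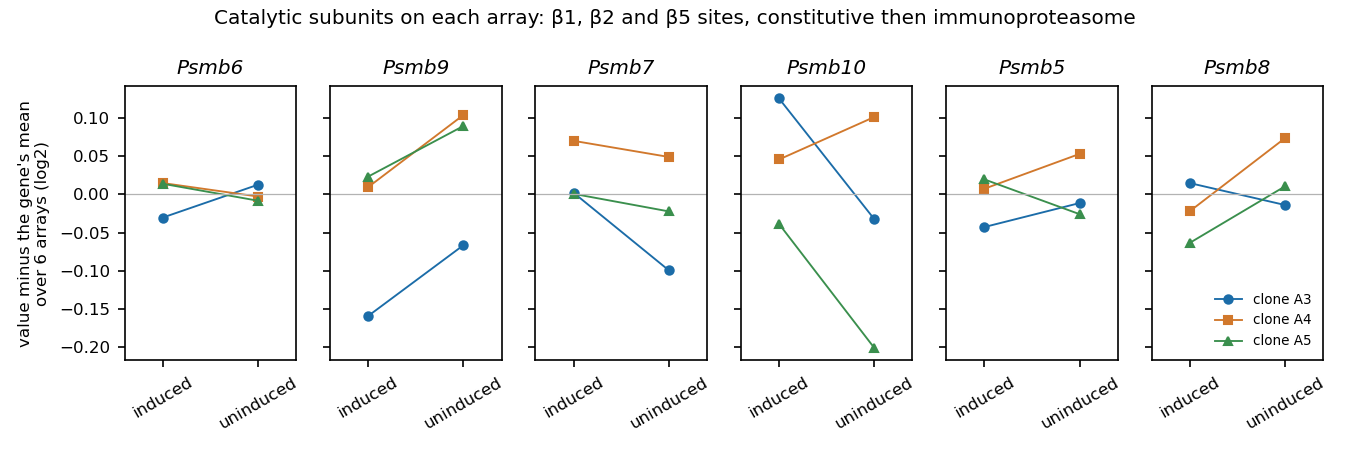
Values of the 6 catalytic subunits on each array, as log2 deviations from the gene's mean over the 6 arrays, with induced cultures left of uninduced ones and a line for each clone. Psmb9 is lower in all 3 induced cultures than in their own uninduced cultures by 0.07 to 0.09, Psmb7 is higher in all 3 by 0.02 to 0.10, and in the other 4 genes the clones differ in direction.

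In the alpha ring, which gates the entry to the core, 7 of 8 members had higher means in induced cultures, with differences from -0.002 to 0.09. Psma1 had 11.58, 11.67 and 11.62 in induced and 11.54, 11.63 and 11.56 in uninduced cultures, a difference of 0.05 ± 0.07 and positive in all 3 clones. The constitutive beta ring had differences from -0.04 (Psmb4) to 0.05 (Psmb7), with 3 of 7 higher. For the 14 constitutive core subunits, the alpha ring without Psma8 and the beta ring, the median difference was 0.01. Of these, 13 were higher on induction in A5, 8 in A3 and 6 in A4. Of genes with a mean of at least 10, 61.1%, 40.9% and 49.4% were higher in these clones.

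Among the 17 subunits of the 19S cap the median was -0.005 with 8 higher. Psmc4, an ATPase of the ring (Rpt3), had the largest difference of all members at the probe sets used. It had 12.19, 12.17 and 12.00 in induced and 12.04, 11.80 and 12.00 in uninduced cultures, a difference of 0.17 ± 0.09 (adjusted p = 1.00, and 0.843 with the block). This mean came from A4 (0.37) and A3 (0.15), with -0.01 in A5, and the uninduced culture of A4 was the lowest of the 6 arrays. The second probe set of Psmc4 differed by -0.01. In all other members the difference within each clone was under 1.2-fold at the probe set used. At these probe sets the other 5 ATPases lay between -0.02 and 0.02. A probe set of Psmc6 that was not used (mean 7.86) differed by 0.25 ± 0.11, more than Psmc4, with overlapping groups. Clone A4 gave 0.41, A3 0.36 and A5 -0.01, and the unadjusted p in limma was 0.054. The remaining probe set of Psmc6 (mean 9.65) differed by 0.004.

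Of the lid, which removes ubiquitin from the substrate, 3 of 8 members were higher in induced cultures. Psmd3 had 10.16, 10.12 and 10.14 in induced and 10.30, 10.14 and 10.18 in uninduced cultures, a difference of -0.06 ± 0.07. Psmd6 had 11.54, 11.59 and 11.55 in induced and 11.57, 11.59 and 11.60 in uninduced cultures, a difference of -0.03 ± 0.06. Both were lower in all 3 clones, by no more than 0.13. Psmd14, the deubiquitinase of the lid, differed by -0.01 ± 0.07. The base subunits Psmd1 and Psmd2 differed by 0.04 and -0.03 and the ubiquitin receptor Psmd4 by 0.02.

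The chaperones that build the cap and the core held 4 of the 12 members with 1 sign in all clones. Psmd10 (gankyrin), a chaperone of the ATPase ring, had 8.31, 8.45 and 8.29 in induced and 8.21, 8.40 and 8.16 in uninduced cultures, a difference of 0.09 ± 0.09. Psmd9, another such chaperone, had 8.01, 8.10 and 8.10 in induced and 8.0002, 8.09 and 7.94 in uninduced cultures, a difference of 0.06 ± 0.07 that came from A5 (0.15). Psmg2, which with Psmg1 starts the alpha ring, had 10.70, 10.82 and 10.77 in induced and 10.53, 10.78 and 10.67 in uninduced cultures, a difference of 0.10 ± 0.08. Psmg4, which with Psmg3 helps the alpha ring on, had 9.18, 9.48 and 9.37 in induced and 9.36, 9.53 and 9.48 in uninduced cultures, a difference of -0.12 ± 0.09 and the lowest of all members. The partners Psmg1 and Psmg3 differed by 0.02 ± 0.07 and -0.01 ± 0.09. None of the 4 passed the threshold (adjusted p = 1.00 each, and 0.858 to 0.946 with the block). Of the activators, Psme1 of the 11S ring differed by 0.02, the nuclear activator Psme3 by 0.05 with 0.25 in A3 and -0.13 in A4, and Psme4 (PA200) by 0.01. The inhibitor Psmf1 differed by 0.01.

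Not all probe sets of a gene gave the same sign. Of the 21 members with 2 or more probe sets averaging 5 or above, 10 had 1 sign at all of these and the others did not. Psmf1 had the widest span, from -0.20 to 0.10. Psmd6 differed by -0.03 at the probe set used and 0.12 at its other one, and Psmd9 by 0.06 and -0.03. Among probe sets not used, 1 of Psmd11 (mean 5.50) differed by -0.21 and 1 of Psmd13 (mean 4.85) by -0.23. At both the groups did not overlap, with an unadjusted p in limma of 0.0241 and 0.0242 and no adjusted p under 0.05. These 2 are named for their values out of the 103 probe sets of the members. Of all probe sets 3.12% had an unadjusted p under 0.05 in limma, and 7.22% of all genes had groups without overlap.

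The second comparison asks how far the clones differ. By limma's F-test of the clone term 2 of 49 members had an adjusted p under 0.05, where 2.18% of all probe sets and 3.09% of all genes did. In the pairwise contrasts the same 2 of 49 members were called for A3 minus A4, where 740 of 18193 genes and 2.94% of probe sets were. They were also called for A3 minus A5, where 431 of 18193 genes and 1.68% of probe sets were. Psmb1 encodes the beta6 subunit, a non-catalytic part of the beta ring that every 20S core needs. It had 11.08, 11.95 and 11.97 in induced A3, A4 and A5 and 11.06, 12.00 and 11.89 in uninduced ones. Both arrays of A3 were thus below all 4 of the other clones. A3 minus A4 was -0.90 ± 0.09 (SE, adjusted p = 0.00233) and A3 minus A5 was -0.86 ± 0.09 (adjusted p = 0.00385), which is 1.87-fold and 1.81-fold lower in A3, and A4 minus A5 was 0.05. The F-test gave an adjusted p of 0.00347. A second probe set of Psmb1 averaged 6.17 for A3, 7.10 for A4 and 6.99 for A5, while the remaining one averaged 5.77, 6.03 and 5.82.

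Psma8, an alpha subunit that in the mouse belongs to the proteasome of the testis, where it takes the place of Psma7, went the other way. It had 9.08, 8.35 and 8.55 in induced and 9.004, 8.31 and 8.40 in uninduced cultures, so that both arrays of A3 were above all others. A3 exceeded A4 by 0.71 ± 0.085 (adjusted p = 0.00541) and A5 by 0.57 ± 0.085 (adjusted p = 0.0184), or 1.64-fold and 1.48-fold, with an F-test adjusted p of 0.0102. Its call rests on the A3 arrays. Without the induced A3 array the adjusted p was 0.0885 and without the uninduced one 0.0759, with A3 minus the mean of A4 and A5 at 0.65 and 0.63, while Psmb1 kept its call at 0.0325 and 0.0257. In these fits the lone A3 array is assumed to vary like the others. Psma7 had clone means within 0.19 of each other. With the clone as a block, the SE of the induction difference was 0.07 for Psmb1 and 0.07 for Psma8, against 0.29 and 0.22 without it, and neither was called.

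Next in order was Psme4, the large activator of proteasomes in the nucleus, with 11.47, 11.10 and 11.22 in induced and 11.46, 11.19 and 11.13 in uninduced cultures. A3 exceeded A4 by 0.32 ± 0.09 and A5 by 0.29 ± 0.09, which did not pass the threshold (F-test adjusted p = 0.179). With an intensity trend in the variance prior Psme4 was called as well (adjusted p = 0.00711), and its 2 other probe sets averaging 5 or above were also higher in A3. The share of all probe sets called with this trend is not given here. In the other 46 members the range of the clone means reached at most 0.26 (Psmb11), and the median range over the family was 0.09 beside 0.15 over all genes and 0.11 over genes with a mean of at least 10.

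**Figure D3:**
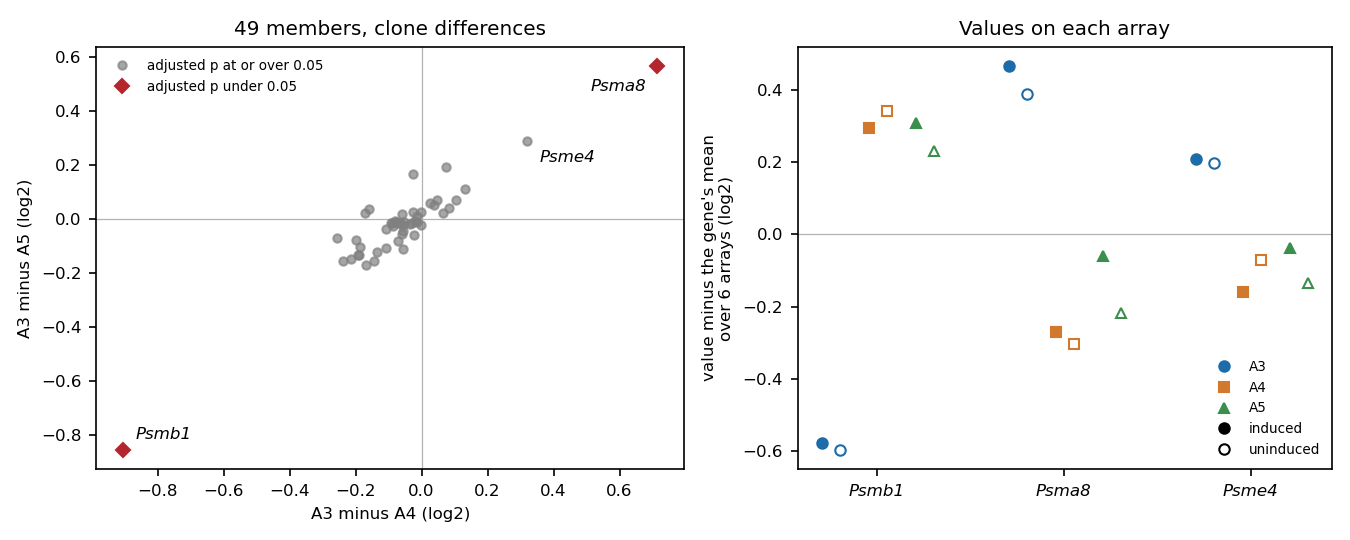
Left, A3 minus A4 against A3 minus A5 (log2) for the 49 members, where red diamonds passed the F-test between clones. Right, values on each array for Psmb1, Psma8 and Psme4 as log2 deviations from the gene's mean, with induced cultures filled and uninduced ones open. Psmb1 lies alone at the lower left, with both A3 arrays near -0.59, and Psma8 and Psme4 lie at the upper right.

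The remaining members differed little between clones. A3 had the lowest clone mean in 32 of 49 members (65.3%), beside 41% of all genes and 35.9% of genes with a mean of at least 10. A4 had the highest in 33 (67.3%), beside 35.4% and 32.9%. The median over the members was -0.06 for A3 minus A4, -0.02 for A3 minus A5 and 0.03 for A4 minus A5, beside -0.01, -0.01 and -0.002 over all genes. When arrays were centred on their medians, A3 minus A5 became 0.01. With 1 array left out it ran from -0.05 to 0.02, and A4 minus A5 from -0.003 to 0.07, so neither median kept its sign. By array, the median deviation of the members was -0.02, 0.02 and 0.02 in induced A3, A4 and A5 and -0.02, 0.04 and -0.03 in the uninduced cultures, so A5 stood on both sides of 0. The members share 2 arrays per clone and these counts carry no test. In A4 minus A5, 0 members were called (13 of 18193 genes and 0.0511% of all probe sets were).

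The genes that lie beside Psmb1 on chromosome 17 were then looked at, a choice made after its values were seen, and so without a test. In RefSeq gene order, among measured genes with a mean of at least 5, the stretch from Qk to Zfp946 holds 38 genes besides Psmb1. Its ends were set from these values, by going outward from Psmb1 for as long as genes were more than 0.3 lower in A3 than in the mean of A4 and A5, with no more than 1 exception in a row. The count of 36 such genes is thus fixed in part by that choice, and the exceptions were Dll1 (-0.06) and Has1 (-0.03). The median was -0.68 and the range -1.16 to -0.03, beside -0.88 for Psmb1. The next genes outward were Pde10a (0.01) and Zfp945 (-0.17), and the other 562 genes of the chromosome had a median of -0.02. A4 minus A5 had a median of 0.01 over the stretch.

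Among the nearest neighbours, Tbp, which encodes the TATA-binding protein, averaged 8.46 for A3, 9.26 for A4 and 9.26 for A5. Pdcd2 had 8.71, 9.39 and 9.32, Phf10 9.62, 10.60 and 10.65, and Fam120b 6.19, 6.63 and 6.76. Farther off, Tcp1, a subunit of the cytosolic chaperonin, had 11.99, 12.64 and 12.69, and Sod2, the mitochondrial superoxide dismutase, 11.15, 11.84 and 11.80. For the other 48 members the median of the same difference over the 10 measured genes on either side ranged from -0.07 to 0.10, and the highest of these was that of Psma8.

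**Figure D4:**
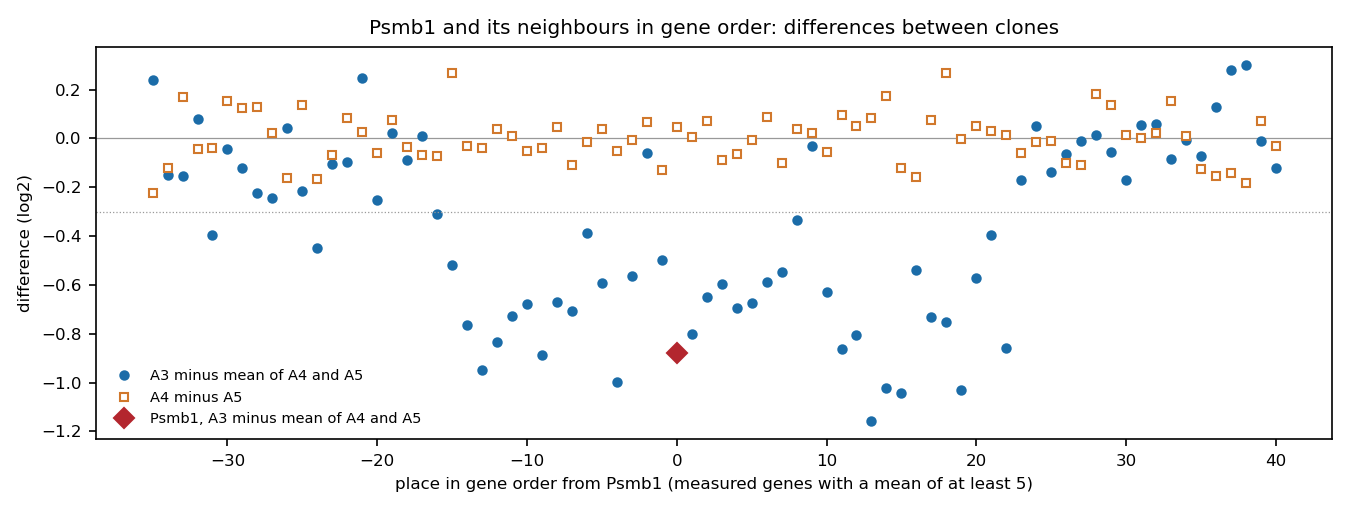
Differences between clones (log2) for measured genes in RefSeq order around Psmb1 (place 0), as A3 minus the mean of A4 and A5 (filled circles, Psmb1 as a red diamond) and A4 minus A5 (open squares), with the dotted line at -0.3. From place -16 (Qk) to place 22 (Zfp946) nearly all filled circles lie under the dotted line while the open squares stay around 0.

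Genes of the pathway outside the family were described from lists of proteasome partners, of ubiquitin supply and of antigen presentation. In none of these lists was a gene called on induction or between clones. Of 11 measured partners and regulators, 6 were higher in induced cultures, with a median of 0.01. Nfe2l1, the transcription factor that raises proteasome genes, had 8.86, 8.94 and 8.95 in induced and 8.996, 9.02 and 9.23 in uninduced cultures, a difference of -0.16 ± 0.08 that was negative in all 3 clones with no overlap (adjusted p = 1.00, 0.843 with the block). Ngly1, the glycanase that Nfe2l1 needs for its activation, had 6.54, 6.57 and 6.63 in induced and 6.24, 6.51 and 6.46 in uninduced cultures, a difference of 0.17 ± 0.09 without overlap. Zfand5, which binds the 26S proteasome, differed by 0.10 ± 0.07, also without overlap. Groups without overlap were seen for 3 of the 11 genes here and for 7.22% of all genes. Usp14, a deubiquitinase on the cap, had 10.90, 10.78 and 10.91 in induced and 10.64, 10.86 and 10.67 in uninduced cultures, a difference of 0.14 ± 0.08. Between clones the smallest p in this list belonged to Ecpas, an adaptor of the proteasome, with means of 6.52, 6.60 and 6.75 in A3, A4 and A5.

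Of 13 measured genes of ubiquitin supply and delivery, 4 were higher in induced cultures and the median was -0.04. Ufd1, a cofactor of the segregase Vcp, had 8.70, 8.58 and 8.65 in induced and 8.51, 8.61 and 8.42 in uninduced cultures, a difference of 0.12 ± 0.08. The shuttle factor Ubqln4 had 9.86, 9.84 and 9.78 in induced and 10.03, 9.72 and 10.15 in uninduced cultures, a difference of -0.14 ± 0.11. Bag6, a chaperone of misrouted proteins, had 9.26, 9.38 and 9.35 in induced and 9.496, 9.25 and 9.60 in uninduced cultures, a difference of -0.12 ± 0.10. In both genes A4 stood opposite to A3 and A5. Between clones the smallest p values were those of the ubiquitin ligase Ube3a (10.96, 10.59 and 10.69 in A3, A4 and A5, adjusted p = 0.181), of Ubqln2 (10.99, 10.72 and 10.87) and of the ubiquitin-activating enzyme Uba6 (10.08, 9.86 and 9.96). Ube3a and Ubqln2 were called with the intensity trend, at adjusted p of 0.0118 and 0.032, with no share over all probe sets beside it.

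Of 11 measured genes of interferon signalling and antigen presentation, 8 were higher in induced cultures and the median was 0.05. Irf9, a transcription factor of the interferon response, had 6.77, 6.83 and 6.86 in induced and 6.71, 6.77 and 6.57 in uninduced cultures, a difference of 0.14 ± 0.08. The peptide transporter Tap2 had 5.68, 5.57 and 5.66 in induced and 5.56, 5.18 and 5.62 in uninduced cultures, a difference of 0.18 ± 0.12 with most of it in A4 (0.39). Irf1 had 8.41, 8.59 and 8.46 in induced and 8.36, 8.53 and 8.27 in uninduced cultures, a difference of 0.10 ± 0.09. All 3 were higher in each induced culture than in its own uninduced one, and the groups overlapped. Between clones the class I genes H2-D1 (7.70, 7.30 and 7.53 in A3, A4 and A5) and H2-K1 (7.39, 7.34 and 7.67) and the loading factor Tapbp (7.47, 7.12 and 7.20) had the smallest p, at adjusted p of 0.161, 0.214 and 0.160. H2-D1 was called with the intensity trend (0.0414), again with no share over all probe sets beside it.

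The cells carried the markers of ES cells. All 10 of 10 markers, Pou5f1, Nanog and Sox2 among them, had means of 9.83 to 13.88, and 8 markers of fibroblasts or feeder cells had means of 2.56 to 6.497. Some marker lists differed between the clones. The summed level (antilog of the array values) of 5 trophoblast markers was 381 to 390 for A3, 761 for A4 and 602 to 635 for A5, that of 6 primitive endoderm markers 430 to 554, 372 to 373 and 437 to 482, and that of 6 haematopoietic markers 1920 to 2170, 1560 to 1590 and 1730 to 1770. Tfap2c made up 82% to 90.2% of the trophoblast sum on an array, and Laptm5 and Cd68 together 90.5% to 94.2% of the haematopoietic sum. As the sums join different probe sets, these shares are descriptions only. In the primitive endoderm list Lama1 had a mean of 8.04 and the others 4.58 to 5.73. Lama1 was highest in A3, while Gata4, Gata6 and Sox7 were lowest there. Single genes called between clones were Tfap2c, Lama1, Dab2, Cd68 and, of the ES cell markers, Fgf4. The defining trophoblast genes Cdx2 and Elf5 had means of 4.75 and 3.92 and Ptprc of blood cells 2.60. Between induced and uninduced cultures the sums overlapped in all 5 lists, while within each clone the primitive endoderm sum (430 against 554 in A3, 372 against 373 in A4 and 437 against 482 in A5) and the haematopoietic sum (1920 against 2170, 1560 against 1590 and 1730 against 1770) were lower in the induced culture. Single markers did not all follow the sums. Of the primitive endoderm markers 4 had lower and 2 higher means in induced cultures, and of the haematopoietic markers 3 and 3. Sox17 was higher on induction in all 3 clones, and Sox7 and Dab2 were lower in all 3. The part of these cell types in the clone differences of Psmb1 and Psma8, or in the induction differences of the members, was not tested. Bacterial transcripts spiked into the RNA before labelling averaged 6.46, 6.11 and 6.15 on the induced arrays of A3, A4 and A5 and 6.17, 6.03 and 5.71 on the uninduced ones, and their part in the small differences of the members was not tested either.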

How the data were processed

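Total RNA of the 6 cultures had been hybridised to Affymetrix Mouse Genome 430_2 arrays, 1 per culture. The authors deposited 1 log2 value per probe set, computed by RMA in the affy package of Bioconductor (background correction, quantile normalization and summarization). The versions and the arrays that were normalized together are not given in the sources used here. Array medians lay between 5.03 and 5.06.

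Of 45101 probe sets, 64 controls were set aside and 45037 were tested without a filter. One symbol was listed for 34945 of them, several for 932 and none for 9160, and RefSeq (GRCm38.p6) gave gene order and promoter windows. The members, gene lists and tests were chosen with earlier results of these data known. The family was taken whole, and values on each array are given for the catalytic subunits, the members with the smallest p on induction and 1 sign in all clones (up to 5 a direction), those called between clones, and up to 3 genes a comparison from each related list. Psmc4, Psme4 and the neighbours of Psmb1 were added after their values were seen.

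Tests used limma 3.58.1 in R 4.3.3 (lmFit and eBayes, two-sided), with p adjusted by Benjamini-Hochberg over all probe sets and 0.05 as the threshold. The study's methods name a t-test and mention no pairing, so induction was fitted without a block, and again with the clone as a replicate block. The numbers pair the arrays because same-numbered arrays come from 1 clone: after group means were removed, induced and uninduced arrays correlated at 0.524 (A3), 0.376 (A4) and 0.210 (A5), where other pairs gave -0.407 to 0.0689. Removing the group mean ties the arrays of a group together, so positive values within clones push those of other pairs down. Clones were compared in a model with induction and clone. Nothing in the labels says that cultures of a clone are independent, so the p-values reflect no more than the spread among these arrays, and their number limits the precision. The fits were tested on simulated data with 200 changed probe sets. For induction the simulated arrays held no differences between clones, so they cannot show how the fit without a block fares with them. The alternatives were the block, other tests, an intensity trend, a filter at a mean of 5, renormalization, centring, the mean of all probe sets of a gene, and leaving out each array or clone.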

Additional observations from a re-analysis of the deposited data

How the results depend on the processing

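No member was called on induction under any alternative run, including the methods' t-test and the paired t-test after Benjamini-Hochberg. At an unadjusted p under 0.05 these gave 0 and 2 members, where they gave 3.43% and 4.96% of all genes. Of the 1823 genes with a mean of at least 10 they gave 31 and 72. Limma gave 0 members. With the clone as a replicate block the count of members called stayed at 0, and no call changed. Between clones 2 members were called under the filter, both renormalizations and the mean of all probe sets, and 3 with the intensity trend. The share of all probe sets called under these settings is not given here. The added calls with the trend (Psme4, Ube3a, Ubqln2 and H2-D1) thus have no background beside them. Leaving out an array or a clone gave 0 to 2: Psmb1 alone without either array of A3, and 0 without both. The median induction difference of the members ran from -0.0127 to 0.0335, within the 0.0472 SD between clones. The median of A3 minus A4 was -0.06 and ran from -0.089 to -0.0289 with 1 array left out.

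Among single genes with differences near 0 the sign turned. Centring the arrays gave 0.0026 for Psmb5 and 0.012 for Psmb6, and leaving out arrays or clones gave -0.038 to 0.013 for Psmb5 and -0.013 to 0.020 for Psmb6. The induction differences of all 23 named genes moved by over 1.5 times with some array or clone left out, and 0 were called. Nfe2l1 was at -0.09 and Bag6 at -0.04 without the uninduced A5 array, Ngly1 at 0.09 without the uninduced A3 array, Psmc4 at 0.09 without the uninduced A4 array and Psmg4 at -0.04 without the induced A3 array. The mean of all probe sets gave 0.0451 for Psmd6 and -0.0216 for Psmd9. The cause was not tested. With 3 arrays a group, the members' median half-width of the 95% interval was about 0.16 on the log2 scale, and the widest 0.67 (Psmb1). Differences smaller than a member's own half-width could not be told from 0. These intervals are not adjusted over probe sets, and the adjusted threshold asks for more: Psmc4 at 0.17 was not called. Low signals such as those of Psmb8 and Psmb11 have no detection call here.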

Other observations

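The probe set shared by Psme2 and Psme2b, which the rule leaves out because it has 2 symbols, had 9.38, 9.34 and 9.29 in induced A3, A4 and A5 and 9.36, 9.51 and 9.10 in the uninduced cultures. The difference was 0.02 ± 0.11 (SE; adjusted p = 1.00 in limma), and the clones were not called (adjusted p = 0.478). Psme2 encodes the partner of Psme1 in the 11S activator, and Psme1 differed by 0.02 ± 0.09.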
